A study of Equus caballus with 4 samples.

Results

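The genes described here act where a myoblast meets its neighbour and fuses with it. They comprised the gap junction gene *GJA1*, the cadherins *CDH2* and *CDH15*, the immunoglobulin adhesion genes *NCAM1*, *CXADR* and *CADM1*, the receptors *CDON* and *NEO1*, the fusion gene *TMEM8C*, also called *MYMK*, and the ferlin *MYOF*. They were chosen by name, with earlier results of these data known, and every probe of each gene on the array was taken. Their counts beside those of all genes are therefore not a test. Of 43603 probes with a target, 29 belonged to these 10 genes, of 13361 gene symbols in all. The symbol in the files found 6 genes with 13 probes. The older symbol CX43 found the 13 probes of *GJA1*, and the description text found 1 probe each of *CDH15*, *TMEM8C* and *MYOF*.

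Differentiating equine satellite cells (ESC), the stem cells of skeletal muscle, came from *m. semitendinosus* of 6-month-old stallions. In the HMB-treated group, ESC received HMB, made in the body from leucine, at 50 µM for 24 h from the end of day 2 of differentiation, and 3 mM H2O2 in the last 1 h. Control ESC had the same H2O2 and no HMB, so the peroxide was common to both groups, and RNA was taken on day 3. Each of 4 two-colour arrays carried Cy5-labelled HMB-treated RNA and Cy3-labelled control RNA and gave 1 replicate. Dyes were not swapped, so dye and treatment cannot be told apart. The 4 arrays lay on 1 slide. The labels call the 4 replicates biological but name replicate 1 for the control on every array, and 1 culture with a high fusion index was selected beforehand, so n = 4 need not stand for 4 horses and p-values measure the spread between these arrays. The plating step used to make the cultures was meant to remove fibroblasts. Cells without H2O2 were not analysed here.

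Myoblasts fuse into myotubes after they align and adhere. Connexin 43, the product of *GJA1*, forms channels between adjoining cells. N-cadherin (*CDH2*) and M-cadherin (*CDH15*) bind the same cadherin on the next cell, while NCAM1 (CD56), CXADR and CADM1 belong to the immunoglobulin superfamily. CDON works at these contacts as a promyogenic co-receptor, and neogenin (*NEO1*) is a receptor for netrins and repulsive guidance molecules. Myomaker, encoded by *TMEM8C*, is a membrane protein needed for fusion itself, and myoferlin (*MYOF*) takes part in membrane fusion and repair.

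The probes are 60 bases long, and 9 of them are printed, to show how the *GJA1* probes overlap and what was read for 5 other genes, 4 called lower and *TMEM8C* not called. For *CADM1* the second probe is shown, and no probe of *NEO1* is. Bases in capitals are shared by all overlapping probes of the same stretch of *GJA1*, and the 6 sequences wholly in lower case overlap no other probe in this way.
*GJA1* A_69_P004832: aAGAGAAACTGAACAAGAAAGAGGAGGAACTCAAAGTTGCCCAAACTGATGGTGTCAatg
*GJA1* A_69_P004836: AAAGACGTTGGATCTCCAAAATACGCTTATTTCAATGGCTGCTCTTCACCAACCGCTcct
*GJA1* A_69_P005155: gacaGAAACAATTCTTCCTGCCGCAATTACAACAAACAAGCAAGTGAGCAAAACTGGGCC
*GJA1* A_69_P002631: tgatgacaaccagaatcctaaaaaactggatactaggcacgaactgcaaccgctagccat
*NCAM1* A_69_P125246: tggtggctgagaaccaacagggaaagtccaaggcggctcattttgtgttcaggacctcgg
*CDH15* A_69_P082566: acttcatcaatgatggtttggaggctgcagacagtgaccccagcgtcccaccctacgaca
*CXADR* A_69_P016321: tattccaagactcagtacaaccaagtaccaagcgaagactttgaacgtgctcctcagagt
*CADM1* A_69_P068511: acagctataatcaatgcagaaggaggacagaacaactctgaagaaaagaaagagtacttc
*TMEM8C* A_69_P014786: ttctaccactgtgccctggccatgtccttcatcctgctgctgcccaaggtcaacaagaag
The 4 *GJA1* probes stand for the 4 stretches covered by its 13 probes. On the EquCab1 build named in the file headers they lie on the plus strand at chr10:63765733-63765792, chr10:63766197-63766256, chr10:63766299-63766357 and chr10:63766439-63766498. The other probes lie at chr7:18350982-18351041 on the plus strand for *NCAM1*, chr3:63378474-63379468 on the plus strand for *CDH15*, chr26:25590807-25590866 on the minus strand for *CXADR*, chr7:20036271-20036330 on the minus strand for *CADM1* and chr25:2991646-2991705 on the plus strand for *TMEM8C*. The *CDH15* probe spans 995 bases of the genome. The files name no exon. Of the 29 probes, 14 overlapped another probe of their gene by 40 or more bases, so the 29 probes read 19 separate stretches, and probes of 1 gene are not independent measurements.

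In HMB-treated ESC, 1 of the 10 genes was higher than in control and 5 were lower. The gene with higher expression was *GJA1*. Lower expression was found for *NCAM1*, *CXADR*, *CDH15*, *CADM1* and *NEO1*, and *CDH2*, *CDON*, *TMEM8C* and *MYOF* did not pass the thresholds. Each value is the log2 ratio of HMB-treated over control RNA, tested against 0 with limma over 24669 probes. A probe was called when its Benjamini-Hochberg adjusted p was 0.05 or less and its fold change (FC) was 1.3 or more. A probe was tested when 1 or both channels were well above background on all 4 arrays, which 27 of the 29 probes met. The *CXADR* probe met this through its control channel alone. The brightest tested probe stands for each gene. Calls were common on these arrays. Of all 8327 tested genes 27.3% were called, 10.1% higher and 17.2% lower, and of all tested probes 28.6% were called, 12.1% higher and 16.4% lower. By probe, 23 of the 27 tested probes were called, 13 higher, all of *GJA1*, and 10 lower. The median log2 ratio of the 10 genes was -0.37, and that of all tested genes was -0.09. The sign was the same on all 4 arrays for 26 of the 27 probes, and for 61.5% of all tested probes.

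**Figure D1:**
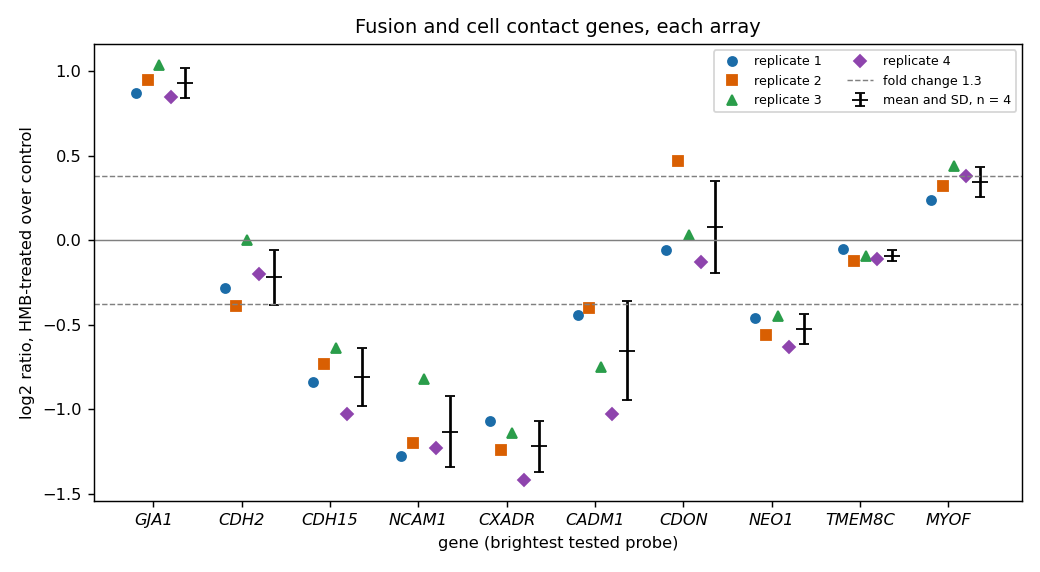
Log2 ratio of HMB-treated over control ESC (vertical axis) for the brightest tested probe of each of the 10 genes (horizontal axis). Coloured symbols are the 4 arrays, the black bar is the mean with its SD, and dashed lines mark an FC of 1.3. *GJA1* lies between 0.85 and 1.04 on every array, while *NCAM1*, *CXADR* and *CDH15* lie below -0.60 on every array and *TMEM8C* stays close to 0.

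All 13 *GJA1* probes gave higher expression in HMB-treated ESC. For the brightest, A_69_P005155, the log2 ratios on replicates 1 to 4 were 0.87, 0.95, 1.04 and 0.85. They averaged 0.93 ± 0.09 (SD, n = 4) for an FC of 1.91 (limma adjusted p = 0.000135). The processed signal, in scanner units, was 343 to 446 in the control channel and 620 to 920 in the HMB channel, so the channels did not overlap. The means of the 13 probes ran from 0.73 to 1.13. Their adjusted p ranged from 0.000132 for A_69_P004832, at 1.13 ± 0.15, to 0.00484 for A_69_P002631. The last probe was also the most variable, with 0.43, 0.70, 1.19 and 0.60 on the 4 arrays, and only its channels overlapped, at 92.2 to 167 in control and 140 to 225 with HMB. Replicate 3 gave the highest ratio on all 13 probes.

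The 13 probes fall into 4 stretches, within which the probes are shifted by a few bases. The first stretch, at chr10:63765730-63765793, held 5 probes and averaged 1.10 ± 0.19. The second, at chr10:63766194-63766256, held 2 probes and averaged 0.79 ± 0.17. The third, at chr10:63766299-63766360, held 5 probes and averaged 0.95 ± 0.12, with 2 of them given a genome span of 307 bases in the files. The fourth is the single probe A_69_P002631, at 0.73 ± 0.33. Within a stretch the probe means differed little, from 1.08 to 1.13 in the first and from 0.88 to 1.00 in the third. The first stretch gave a higher ratio than the second on 4 of 4 arrays, by 0.32 ± 0.09, and a higher ratio than the third on 4 of 4 arrays, by 0.15 ± 0.10. An exact permutation of signs gave p = 0.125 for each, the smallest that 4 arrays allow, and 0.188 after adjustment over 6 pairs of stretches, so this test could not have called either difference.

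**Figure D2:**
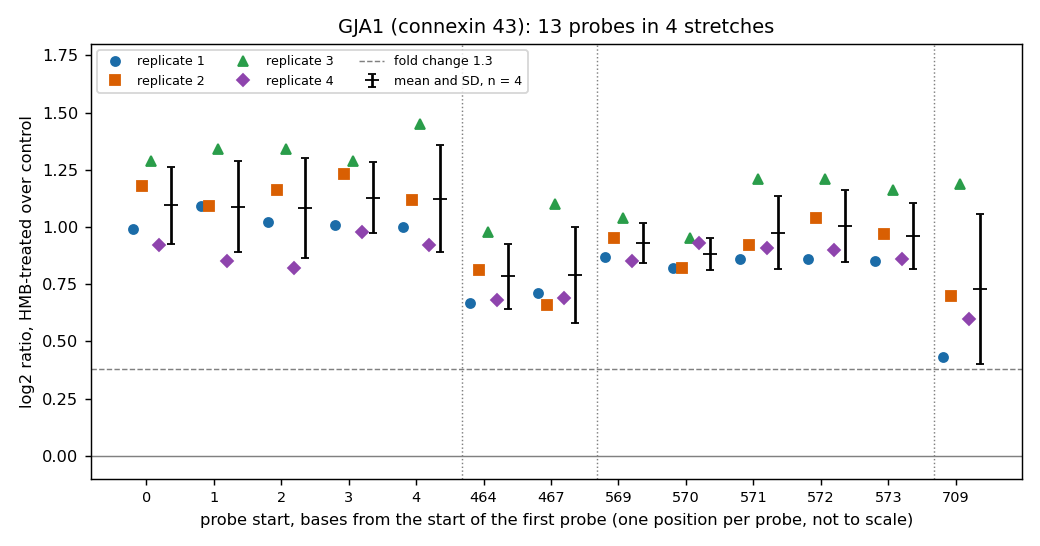
Log2 ratio of HMB-treated over control ESC (vertical axis) for each of the 13 *GJA1* probes, placed in order by the distance of their start from that of the first probe in bases (horizontal axis, not to scale). Symbols are the 4 arrays, black bars the mean and SD, dotted lines part the 4 stretches and the dashed line is an FC of 1.3. Every symbol lies above the dashed line, and the green triangles of replicate 3 are the highest at every probe.

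Other genes of gap junctions were mostly near background. Of 10 listed genes of gap junctions, 10 were on the array and 4 were tested, with 0 higher and 1 lower. The lower one was *GJA5*, connexin 40, a channel of heart and vessel cells, whose HMB channel was at background on all 4 arrays. Against the lowest signal well above background its control signal was 1.42-fold higher, a bound that holds for the main processing only. *GJA5* entered the test through the control channel alone. Its limma adjusted p of 0.000433 rests on HMB values at background (15.6 to 26.1 scanner units, against 29.2 to 42.2 in control). This p-value therefore cannot show a fall. With normexp and loess the log2 ratio was -0.12 and without background correction it was -0.22, both smaller than the bound, and *GJA5* was called in neither. The probe left the test when both channels had to be above background.

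Of the cadherins *CDH15* and *CDH2*, the first was called lower. *CDH15*, the muscle-restricted M-cadherin, gave log2 ratios of -0.84, -0.73, -0.64 and -1.03. It averaged -0.81 ± 0.17 (SD, n = 4) for an FC of 1.75 toward lower expression with HMB (limma adjusted p = 0.000599). The processed signal was 2470 to 3210 in control and 1210 to 1960 with HMB, without overlap. *CDH2*, the more widely expressed N-cadherin (probe A_69_P003106, chr8:42595391-42595450, minus strand), gave -0.28, -0.39, 0.00 and -0.20. Replicate 3 showed no difference, and the channels overlapped. The mean was -0.22 ± 0.16, with a 95% interval of -0.41 to -0.02 before adjustment and a limma adjusted p of 0.0644, so *CDH2* was not called. The interval leaves room for a fall of up to 0.41 on the log2 scale, past the FC threshold at 0.38. *CDH15* was lower than *CDH2* on 4 of 4 arrays, with a difference of -0.59 ± 0.20 (exact permutation p = 0.125, the smallest that 4 arrays allow). Of 9 other cadherin and catenin genes, 9 were on the array and 6 were tested, and 0 were called in either direction, with means from -0.34 to 0.10. Among these 6, 2 had adjusted p-values under the threshold at an FC below 1.3, 1 of them *CTNNB1*, which links cadherins to actin (-0.31, limma adjusted p = 0.0148), and the other *CDH13*, a cadherin held by a lipid anchor (-0.34, limma adjusted p = 0.0289). Both were chosen after their values were seen. The gene nearest to 0 was *JUP*, plakoglobin, at 0.04.

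All 3 genes of the immunoglobulin group were called lower with HMB, *CXADR* on a probe that entered the test through its control channel alone. *NCAM1* was read by 3 probes, 1 of them about 16.2 kb upstream of the other two. The upstream probe, A_69_P125246, was the brightest, with -1.28, -1.20, -0.82 and -1.23 on the 4 arrays. It averaged -1.13 ± 0.21 (SD, n = 4) for an FC of 2.20 (limma adjusted p = 0.000251). The signal was 3600 to 4560 in control and 1530 to 2470 with HMB, without overlap. The downstream probe A_69_P068422 (chr7:18367164-18367223) gave -1.19, -0.79, -0.79 and -0.98, and A_69_P068421 (chr7:18367224-18367283) gave -1.41, -0.86, -0.93 and -1.12. Both were called, with limma adjusted p-values of 0.000422 and 0.00045. The 3 probes therefore gave the same direction on every array. The downstream pair differed by 0.14 ± 0.06 on 4 of 4 arrays (exact permutation p = 0.125, the smallest possible).

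*CXADR*, which encodes a cell junction protein known as a virus receptor, gave -1.07, -1.24, -1.14 and -1.42. Its mean of -1.22 ± 0.15 (SD, n = 4) was the lowest of the 10 genes, at an FC of 2.33 (limma adjusted p = 9.17e-05). The probe was dim. Its control signal was 75.4 to 105 and its HMB signal 28.2 to 47.5, and 3 of 4 arrays had an HMB signal well above background. The probe thus entered the test through the control channel alone, so its p-value does not by itself show a fall. It left the test when both channels had to be above background. With normexp, a background correction that keeps low signals positive, followed by loess within the array, the ratio was -0.34 and was no longer called. The normexp used here adds an offset of 50 to both channels, which by construction draws ratios of dim probes toward 0. With loess and no background correction it was -0.49 and was called.

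*CADM1* encodes a synaptic and epithelial adhesion molecule. Its brightest probe, A_69_P108756 (chr7:20033527-20033586, minus strand), gave -0.44, -0.40, -0.75 and -1.03. The mean was -0.65 ± 0.29 (SD, n = 4) for an FC of 1.57 (limma adjusted p = 0.00521), and the channels did not overlap. The second probe, A_69_P068511, gave -0.60, -0.23, -0.56 and -0.44, with a mean of -0.46 ± 0.17 and a limma adjusted p of 0.00512. The arrays with the strongest fall thus differed between the probes, being replicate 4 for the first and replicate 1 for the second. The third probe, A_69_P068512 (chr7:20036345-20038396), was not tested, since control was well above background on 3 arrays and HMB on 2. It gave -1.5, 0.19, -0.61 and -1.09. The call of *CADM1* was lost with the methods' t-test (adjusted p = 0.06), with limma's treat (adjusted p = 0.173) and with normexp, where the ratio was -0.28.

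Related immunoglobulin genes moved in both directions. Of 11 listed, 11 were on the array and 5 were tested, with 2 higher and 2 lower. *ALCAM* (CD166), an adhesion molecule of many progenitor cells, was higher on every array, at 0.78, 0.97, 0.81 and 0.70 (mean 0.81 ± 0.11, limma adjusted p = 0.000299). *JAM3*, a junctional adhesion molecule, was lower, at -0.63, -0.57, -0.30 and -0.55 (mean -0.51 ± 0.15, limma adjusted p = 0.00269), and both of its probes were called. The *JAM3* call was lost with treat (adjusted p = 0.353), with normexp at -0.34 and without background correction at -0.37. The gene nearest to 0 was *CLMP*, at 0.29 and not called.

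Of the receptors, *NEO1* was called lower and *CDON* was not called. The 3 *NEO1* probes lie within 133 bases of each other on the minus strand of chromosome 1. The brightest, A_69_P097847 (chr1:117450629-117450688), gave -0.46, -0.56, -0.45 and -0.63. It averaged -0.52 ± 0.09 (SD, n = 4) for an FC of 1.44 (limma adjusted p = 0.00131). A_69_P097846 averaged -0.55 ± 0.09 and A_69_P097848 averaged -0.51 ± 0.05. All 12 single-array ratios of these 3 probes lay below 0, but the probes overlap and do not count as separate evidence. The call of *NEO1* was lost with treat (adjusted p = 0.203) and with normexp, where the ratio was -0.35.

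*CDON* was read by 2 probes. A_69_P069446 (chr7:31492451-31492510, minus strand) gave -0.06, 0.47, 0.03 and -0.13. Only replicate 2 stood above the FC threshold, and the channels overlapped at 46.6 to 67.4 in control and 49.8 to 69.0 with HMB. The mean was 0.08 ± 0.27, with a 95% interval of -0.19 to 0.34 and a limma adjusted p of 0.592. Without replicate 2 the mean was -0.05. A_69_P069451 was at background in both channels on all 4 arrays and was not tested. *NEO1* was lower than *CDON* on 4 of 4 arrays, with a difference of -0.60 ± 0.29 (exact permutation p = 0.125, again the smallest possible). Among 12 partners of these receptors, 10 were on the array and 6 were tested, with 1 higher and 2 lower. The higher one was *BOC*, the co-receptor most like CDON, with 0.80, 1.26, 0.91 and 0.86 (mean 0.96 ± 0.21, limma adjusted p = 0.00047). All 5 of its probes were called higher, at means of 0.76 to 1.03. *BOC* was dim as well, and with normexp it was 0.36 and not called. *UNC5B*, a netrin receptor, was lower at -0.68, -1.20, -0.48 and -0.76 (mean -0.78 ± 0.30, limma adjusted p = 0.00291), with the HMB channel above background on 2 arrays. Its call was lost with treat (adjusted p = 0.0573), with normexp at -0.24 and without background correction at -0.26. The *UNC5B* probe entered the test through the control channel alone, so its p-value does not by itself show a fall. It left the test when both channels had to be above background. The adaptor gene *GRB2* lay nearest to 0, at -0.03.

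Neither of the genes closest to membrane fusion was called. *TMEM8C*, the myomaker gene, gave -0.05, -0.12, -0.09 and -0.11. The 4 arrays lay within 0.08 of each other, and the signal of 1460 to 2400 in control overlapped that of 1360 to 2260 with HMB. The mean was -0.09 ± 0.03 (SD, n = 4), equal to the median of all tested genes, and the limma adjusted p was 0.24. Its 95% interval of -0.23 to 0.05 leaves out the FC threshold. *MYOF* (probe A_69_P003741, chr1:35060671-35062101, plus strand) gave 0.24, 0.32, 0.44 and 0.38. It was above 0 on every array, with a mean of 0.35 ± 0.09 and a limma adjusted p of 0.00645. Its FC of 1.27 was below 1.3, so it was not called. Without replicate 1 the mean was 0.38 and it was called.

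The related ferlin *DYSF* (dysferlin, a membrane repair protein) was lower, at -0.75, -0.84, -0.67 and -0.93. Its mean was -0.80 ± 0.11 with a limma adjusted p of 0.000316, and its call held under all 17 alternatives. *DYSF* lay below *MYOF* on 4 of 4 arrays, with a difference of -1.14 ± 0.13 (exact permutation p = 0.125, again the smallest possible). It was the only 1 of 5 listed ferlins that was tested. Of 23 further regulators of myoblast fusion, 21 were on the array and 17 were tested, with 5 higher and 0 lower. *CD81*, a tetraspanin of the fusing membrane, was higher at 0.53, 0.84, 1.3 and 0.74 (mean 0.85 ± 0.33, limma adjusted p = 0.00267). *WASL*, an activator of actin branching, had the largest mean but the widest spread. Its arrays gave 0.36, 1.10, 0.31 and 2.47, with control above background on 2 of them, for a mean of 1.06 ± 1.01 and a limma adjusted p of 0.0482. The *WASL* probe entered the test through the HMB channel alone, so this p-value does not by itself show a rise. It left the test when both channels had to be above background. *WASL* was called under 7 of 16 alternatives, and with normexp and loess it was 0.06 (adjusted p = 0.479). Without replicate 4 its mean was 0.59, and without replicate 2 or 3 it was not called, at 1.05 and 1.31. The sheddase gene *ADAM9* lay nearest to 0, at 0.01. Over all 6 lists, 64 of 70 genes were on the array and 39 were tested. Of these, 8 were higher, 6 lower and 25 not called, and their median log2 ratio was -0.01. Over all 8327 tested genes, 10.1% were called higher and 17.2% lower, with a median of -0.09. The counts of each single list are small and stand beside the same shares.

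**Figure D3:**
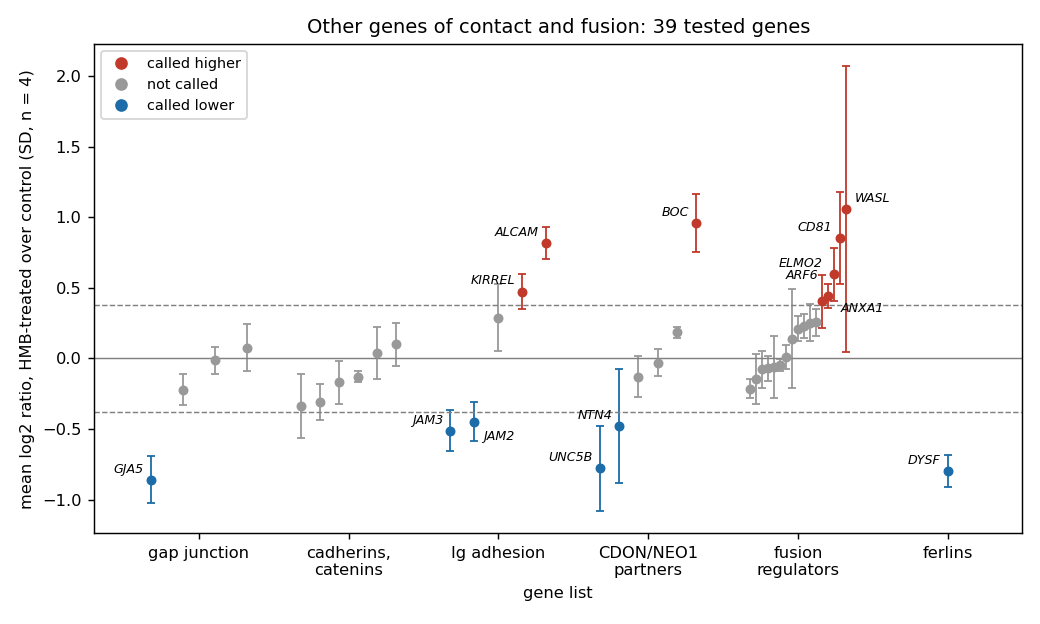
Mean log2 ratio of HMB-treated over control ESC with its SD over 4 arrays (vertical axis) for the 39 tested genes of 6 lists (horizontal axis), each gene read by its brightest tested probe. Red points were called higher, blue points lower and grey points not called, and dashed lines mark an FC of 1.3. The fusion regulators hold 5 red and 0 blue points, the cadherins and catenins hold only grey ones, and *WASL* has by far the longest error bar.

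The signals of the 4 arrays can also be read channel by channel. On the brightest tested probe of *GJA1*, *CDH15*, *NCAM1*, *CXADR* and *CADM1* the control and HMB values of the 4 arrays did not overlap. The share of all tested probes without such overlap is not given here, so this describes the signals and is not a result about these genes. On that of *NEO1* they did, at 445 to 615 in control and 301 to 451 with HMB, although HMB was the lower channel on each array. For *MYOF* they also overlapped, at 1830 to 2310 and 2280 to 3140. Other probes could differ from the brightest. The channels overlapped on *GJA1* A_69_P002631 and on *CADM1* A_69_P068511 and A_69_P068512, but not on *NEO1* A_69_P097846 and A_69_P097848.

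**Figure D4:**
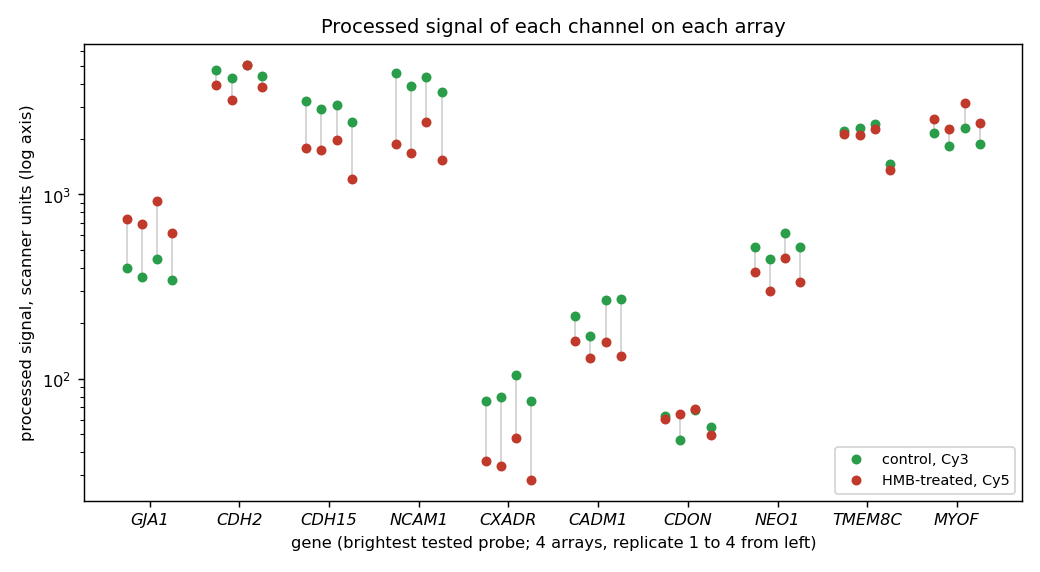
Processed signal in scanner units on a log axis (vertical) for the brightest tested probe of each gene (horizontal), with green points for the control (Cy3) and red points for the HMB-treated channel (Cy5) of the same array joined by a grey line. Red lies above green on each array for *GJA1* and below it for *NCAM1*, *CDH15*, *CXADR*, *CADM1* and *NEO1*. Brightness depends on the probe and is not compared between genes.

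Markers of cell types that the cultures could hold also differed between the groups. RNA came from whole cultures, in which fewer cells of a type and less RNA per cell cannot be told apart. For the counts below, 10.1% of all 8327 tested genes were called higher and 17.2% lower. Of 7 myogenic markers, 6 were tested, 4 lower and 0 higher. They were *MYF5* at -1.49, *MYH3* at -1.38, *DES* at -1.22 and *CKM* at -0.93. The other two were not called, *MYOD1* at 0.32, above 0 on 3 of 4 arrays (limma adjusted p = 0.0441, FC 1.25), and *MYOG* at 0.03. *PAX7*, which marks quiescent satellite cells, was at background on all arrays. The summed signal of the list was 105000 to 119000 in control and 37300 to 60600 with HMB, of which the *MYH3* probe alone gave 80350 to 88920 and 27040 to 44600. Of 6 fibroblast markers, all were tested, 4 higher and 0 lower, with *PDGFRA* at 1.49, *DCN* at 0.77, *THY1* at 0.76 and *LUM* at 0.42. Their summed signal was 222000 to 260000 in control and 252000 to 387000 with HMB, of which *COL3A1*, not called at 0.06, gave 129700 to 158700 and 131600 to 207000. *COL1A1* was not called either, at 0.18. The *PDGFRA* probe was dim, at 28.42 to 36.28 scanner units in control and 62.89 to 108.1 with HMB. Of 5 leukocyte markers, 3 were tested and 2 were higher, *CD68* at 0.88 and *PTPRC* at 0.51, while *ITGAM* and *AIF1* were at background. Their summed signal was 15800 to 20200 in control and 19300 to 30900 with HMB. Only 6 of 15 *PTPRC* probes were tested. The pericyte marker *RGS5* was at background, and 0 of 4 pericyte markers were called, with a summed signal of 8840 to 12900 in control and 9500 to 14900 with HMB. None of the 5 endothelial markers (*PECAM1*, *CDH5*, *KDR*, *TIE1* and *VWF*) and none of the 4 adipocyte markers (*PPARG*, *ADIPOQ*, *PLIN1* and *FABP4*) was tested, and their summed signals reached at most 154 and 52.8. The part of these shifts in the higher *GJA1* and the lower *NCAM1*, *CDH15*, *CXADR*, *CADM1* and *NEO1* was not tested.

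The ratios of *GJA1*, *NCAM1* and *CDH15* kept their direction and their call under all 18 alternative ways of processing. *GJA1* ranged from 0.52 to 1.00, *NCAM1* from -1.55 to -1.01 and *CDH15* from -1.22 to -0.69. With treat, which tests whether a change is beyond the FC threshold, these 3 genes and *CXADR* were called, and 10.3% of all tested genes were. With normexp these 3 alone were called, and 11.9% of all tested genes were. Spike-in RNA, added in known amounts, had a median log2 ratio over its probes of 0.35 to 0.45 on the 4 arrays. The designed ratios of single spike-in transcripts were not taken into account. Shifting all ratios so that the spike-in median read 0 moved the median of all tested probes from -0.07 to -0.48. On that scale *GJA1* remained higher at 0.52, and *CDH2* and *TMEM8C* were called lower at -0.63 and -0.51, close to the median of all probes. In the same scaling 64.9% of all tested genes were called lower.

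**Figure D5:**
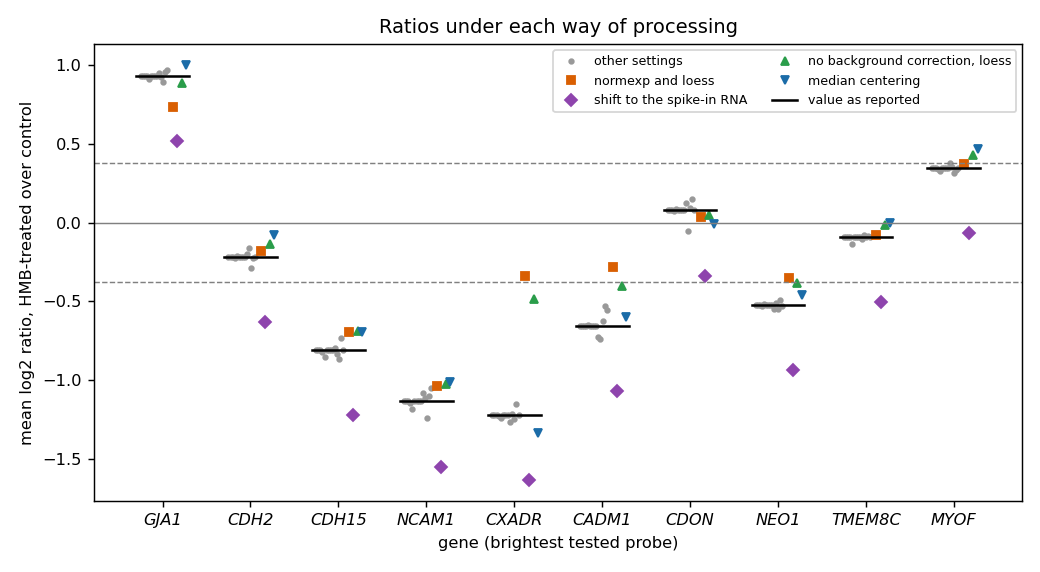
Mean log2 ratio of HMB-treated over control ESC (vertical axis) for the brightest tested probe of each gene (horizontal axis) under each way of processing. The black line is the value as reported, coloured symbols are other background corrections or scalings, grey points are all other alternatives, and dashed lines mark an FC of 1.3. The spike-in shift lowers every gene, and *CXADR*, at -1.22 as reported, lies at -0.34 with normexp and loess and at -0.49 with loess and no background correction.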

How the data were processed

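Gene expression was measured with Agilent horse 4x44K arrays, on 4 arrays with 2 channels. Per the file headers, Feature Extraction 10.10.1.1 read the spots, and the deposited files hold the mean intensity of each spot, the background-subtracted intensity and the linear and lowess normalized signal. The authors also deposited log10 ratios of Cy5 over Cy3 in the same files. These were multiplied to give log2 ratios, with no further normalization between arrays. The authors' table of log10 ratios differed from them by at most 3.96e-05. A surrogate value stands in for signals at background, which compresses the ratios of dim probes.

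Controls were left out, as were 13 to 35 spots per array that carried a mark for non-uniformity or a population outlier, and spots of 1 probe were averaged. No spot was saturated. In the control channel 57.6% to 60.6% of probes were well above background, and in the HMB channel 55.2% to 61.8%. Log ratios of the arrays correlated across probes at 0.837 to 0.92. Probes entered the test where, on each of 4 arrays, either channel was well above background, and where 3 or more arrays had a ratio. limma 3.58.1 in R 4.3.3 (lmFit with an intercept, eBayes) tested the mean against 0, two-sided, with p-values adjusted by Benjamini and Hochberg over the 24669 probes. It was first tested on simulated data. The number of arrays limits the precision. Where the dim channel was at background on every array, the FC is a bound against the lowest signal well above background, for the main processing only. Intervals are those of the moderated fit, not adjusted.

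The genes, gene lists, markers and thresholds were chosen with earlier results of these data known. All probes of the 10 genes are reported. From each further list the 2 called genes with the largest ratio and the gene nearest to 0 were named, except for 1 gene that is not reported here, and markers were named where called or at background. Alternatives were limma's treat, the methods' t-test, trend and robust moderation, normexp (offset 50) or no background correction with loess, median centering, scaling between arrays, a spike-in shift, a GC correction, other filters, the authors' table, the mean over a gene's probes and leaving out each array. Figures were drawn with matplotlib. RefSeq names served only to match older symbols.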

Additional observations from a re-analysis of the deposited data

Results flagged for a closer look

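Of 66 probes examined for 1 array far from the other 3, 2 stood out, and chance marks about 1 in 20. Both were set apart by replicate 3. For the *GJA1* probe A_69_P004836 the gap between replicate 3, at 1.10, and the others, at 0.66 to 0.71, was 0.874 of the whole range. The overlapping probe A_69_P004837 did not pass the same limit. For the *CLMP* probe A_69_P068926 the gap between replicate 3, at 0.64, and the others, at 0.15 to 0.21, was 0.885 of the range.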

How the results depend on the processing

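The count of called genes, 6 of 10, was 3 with normexp and loess, when 11.9% of all tested genes were called in place of 27.3%, and it ran from 6 to 7 when each array was left out. The number of probes called lower, 10, was 5 with treat and 4 with normexp. In the 6 further lists, 8 genes were higher and 6 lower. The higher count was 3 with treat, 4 with normexp and 3 with the spike-in shift. The lower count was 2 with treat, 1 with normexp, 1 without background correction and 21 with the spike-in shift. Calls over all 24669 tested probes shifted too. The number called lower was 4050, against 1280 with treat, 1593 with normexp, 1770 without background correction and 15366 with the spike-in shift. The number called higher was 2996, against 1542 with treat, 1945 with normexp and 1387 with the spike-in shift. *CDON* changed sign to -0.011 with median centering, -0.34 with the spike-in shift and -0.0548 without replicate 2 (-0.0548 to 0.1473 when each array was left out), and *MYOF* to -0.0687 with the spike-in shift. The cause was not tested, except that the spike-in shift lowers all ratios by its own construction. *MYOF* was called at 0.43 without background correction, at 0.47 with median centering and at 0.38 without replicate 1. With a filter that asks both channels to be above background, *CXADR* was not among the tested probes. Of the 13 *GJA1* probes, 10 to 13 were called under every alternative, the fewest with the spike-in shift.

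Of all called probes, 42.5% were higher. This share was 54.6% with treat, 55.0% with normexp, 60.1% without background correction, 52.4% with median centering and 8.28% with the spike-in shift. The test of the ratios within each array already uses the pairing of both RNAs. No further paired analysis was possible, because the arrays form 1 group. Low signal limits *CXADR*, *CDON*, *BOC*, *GJA5*, *UNC5B*, *WASL* and the marker *PDGFRA*, whose ratios rest on channels near background.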
